A study of Mus musculus with 32 samples.

Results

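Gene expression on days 4 to 7 at 39 °C was compared with that on days 1 to 3 at 39 °C in UB/OC-1, a conditionally immortal mouse cell line made from the developing organ of Corti. The comparison used 9 of the 16 cultures in the series, and 18 of its 32 arrays, since each RNA was hybridised to 2 array designs, called a and b. The middle group held days 4, 5, 6 and 7 of an experiment A and day 4 of an experiment B, which made 5 arrays per design. The early group held days 1, 2 and 3 of experiment A and day 2 of experiment B, which made 4 arrays per design. Members were chosen by the day, experiment and temperature in their labels, not by any measured value. All 9 cultures had been moved to 39 °C, the condition that the labels call differentiating, and no culture kept at 33 °C over the same days was analysed here, so time at 39 °C and time in culture cannot be told apart. Both experiments used the same line, and the labels do not say whether each day was a separate culture dish. A culture here means 1 day of 1 experiment. The sample size n counts such days, most of them successive days of experiment A, which may not be independent. The p-values of the group comparison rest on the spread within phases over all 16 arrays of a design, including arrays outside the 9 cultures. This spread also holds change from day to day within a phase. In every test the spread between samples may therefore be technical in part.

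Conditionally immortal lines of this kind carry a temperature-sensitive form of the SV40 large T antigen, which drives division at the lower temperature and is unstable at the higher one. T antigen binds the retinoblastoma and p53 proteins, and its loss is known to let such cells leave the division cycle. The organ of Corti holds the sensory hair cells of hearing, with their actin-filled stereocilia, and the supporting cells around them. Genes that mark its development include the ligand Bmp4, the transcription factors Gata3 and Pax2, and Aldh1a1, an enzyme that makes retinoic acid.

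The measurement was the intensity of a probe set, a group of short oligonucleotides read together for 1 transcript. Intensities were deposited on a linear scale and can be negative. Values under a floor (141 on design a, 198 on design b) were set to the floor before log2 was taken, so a change next to the floor is a low estimate. Among 6584 (design a) and 6595 (design b) probe sets, 7726 in all were above the floor on at least 2 of the 16 arrays of their design and were tested. The share above the floor ran from 46.7% to 50.8% per array on design a and from 32.0% to 39.5% on design b. The array of day 3 was nearest to that of day 4 of the same experiment on both designs (Pearson r = 0.967 and 0.976 across probe sets, as a description). Day 3 was not alone in being nearest to a middle day. Day 2 of experiment A was nearest to day 5, and day 2 of experiment B to its day 4 (r = 0.965 and 0.968), on both designs. Day 1 was nearest to day 5 on design a and to day 2 on design b. The control for RNA length (Gapdh 3' over 5' signal) was 2.65 and 2.56 on the 2 arrays of day 6, against 0.847 to 1.67 on the others.

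In a test for a linear trend over days 1 to 7 at 39 °C, 7 of 7726 probe sets passed (0.0906%). Among them 4 named genes had a rising slope, Scg2, Aldh1a1, Bmp4 and Gstm1, and 2 a falling one, Glipr2 and Tmsb10. With 1 culture left out the test called 0 to 11 probe sets, and 0 for most of the cultures. With experiment as a block, the trend of Gstm1 no longer passed (adjusted p = 0.0597). When the means of the middle and early days were compared as groups, no probe set passed without the block, and 3 passed with it, among them Cxcl12 and Timm10b, both lower. Keratin 18, several actin-binding proteins and the chemokine Cxcl12 were lower in all 5 middle cultures than in all 4 early ones. They were among 58 of 7726 probe sets (0.751%) in that order, against 64 (0.828%) in the reverse order. These genes were named by rank on the same values. Markers of hair cells gave no call in either direction, but only 6 of 21 such genes were tested. No list had a call between the groups.

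Promoter sequences are shown for the 3 named trend genes with a single listed start and with the motifs below near it, so that the gene starts behind the main result can be read. The sequences come from RefSeq (GRCm38.p6), which gave a window for 17 of the 20 top-ranked genes. Each line holds the 100 bases before the start of transcription, 5′ to 3′ on the gene's strand, with motif matches in capitals.
Scg2: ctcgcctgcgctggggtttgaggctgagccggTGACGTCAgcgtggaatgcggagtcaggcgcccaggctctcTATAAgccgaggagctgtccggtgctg
Bmp4: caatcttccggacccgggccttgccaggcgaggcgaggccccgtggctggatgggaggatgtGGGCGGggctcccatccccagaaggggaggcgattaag
Glipr2: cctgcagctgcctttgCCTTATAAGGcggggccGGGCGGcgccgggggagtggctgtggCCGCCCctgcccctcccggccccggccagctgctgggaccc

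The Scg2 window lies at chr1:79440027-79440126 on the minus strand and holds TATAA starting 27 bases before the start and TGACGTCA, the full cAMP response element, starting 68 bases before it. The Bmp4 window lies at chr14:46390670-46390769 on the minus strand and holds a GC box, GGGCGG, 38 bases before the start. The Glipr2 window lies at chr4:43957602-43957701 on the plus strand and holds a CArG box 84 bases before the start, which contains a TATAA, and GC boxes 67 and 41 bases before it, the second on the other strand. In all 32851 RefSeq windows of this length, TATAA on the gene's strand occurred in 7.48%, TGACGTCA in 1.15%, the GC box on either strand in 24.68% and the CArG box in 0.61%. Among the 17 top-ranked genes with a window, 4 held TATAA, 1 held TGACGTCA, 6 held a GC box and 1 held a CArG box, where counting all 27025 genes in the same way gave 8.83%, 1.36%, 27.34% and 0.7%. Of the 6 named trend genes with a window, 3 held TATAA, 1 held TGACGTCA, 3 held a GC box and 1 held a CArG box. The 3 windows shown were picked for holding motifs, so the shares do not measure how unusual they are. The matches describe the letters and do not show that a factor binds there.

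The comparison of the middle with the early days asks what separates the later part of the first week at 39 °C from its first days. By limma with Benjamini-Hochberg adjustment over both designs, 0 of 7726 probe sets passed an adjusted p of 0.05 (0% called), and the smallest adjusted p was 0.114. At an unadjusted p under 0.05 there were 382 probe sets (4.94%), of which 186 were higher (2.41%) and 196 lower (2.54%) on the middle days. The 4.94% is near the share of 0.05 that evenly spread p-values would give. The median log2 difference of all tested probe sets was 0.02. With experiment as a block, 3 probe sets passed (0.0388%), all lower: Cxcl12 at -1.11, Timm10b at -1.00 and a probe set with no gene symbol. Groups did not overlap for 64 probe sets with all middle cultures higher (0.828%) and for 58 with all lower (0.751%). The plot of p-values by test shows the same contrast between the comparisons.

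**Figure D1:**
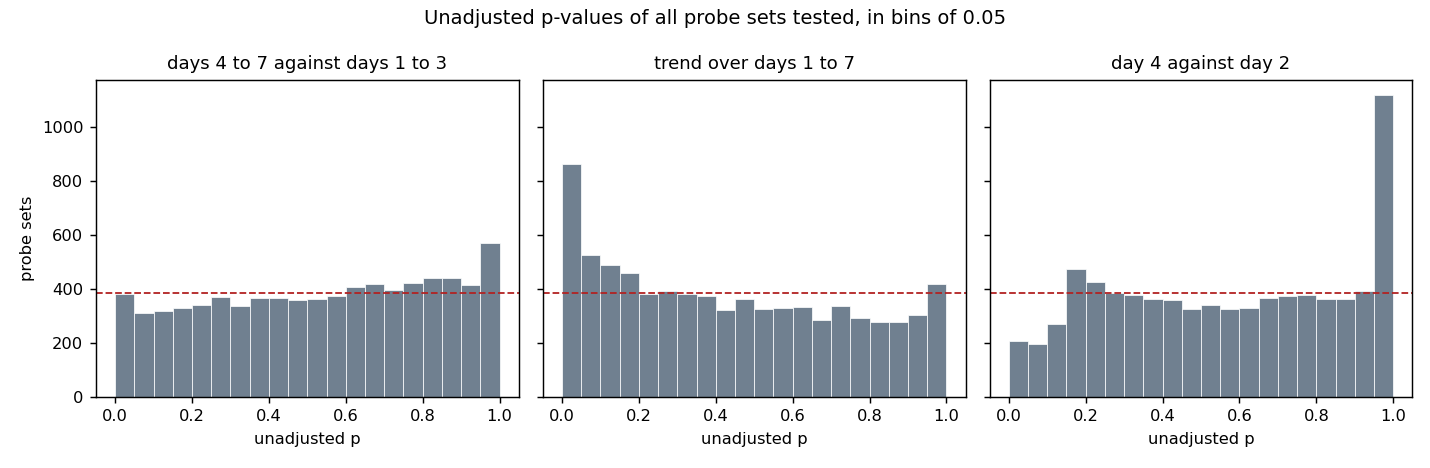
Number of the 7726 tested probe sets (vertical axis) in each bin of unadjusted p of width 0.05 (horizontal axis) for the 3 tests, with a dashed line where every bin would hold the same number. The first bin holds 382 probe sets for middle against early days, 864 for the trend over days 1 to 7 and 206 for day 4 against day 2.

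The trend test used the same 9 cultures per design and asked for a steady change per day, so it is not independent of the comparison of groups. It called 7 probe sets (0.0906%), 4 higher with time (0.0518%) and 3 lower (0.0388%). At an unadjusted p under 0.05 there were 864 (11.2%), with 486 rising and 378 falling slopes. With experiment as a block 9 passed. The calls were not stable to the cultures: without day 3 the trend test called 4, without experiment B's day 4 it called 11, and without any other one of the cultures it called 0. Leaving out an end day also shortens the span of days, and the cause was not tested.

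Among the genes that rose, Scg2 codes for secretogranin II, a granin of dense-core secretory vesicles. Its intensity was 108, 170 and 469 on days 1, 2 and 3 of experiment A and 135 on day 2 of experiment B. It was 535, 665, 1477 and 1485 on days 4 to 7 of experiment A and 629 on day 4 of experiment B. All middle cultures lay above all early ones, and 3 of the 4 early cultures were at the floor. Scg2 rose by 0.56 ± 0.07 (SE, n = 9) on the log2 scale per day (adjusted p = 0.0284). Between the groups its log2 difference was 1.82 ± 0.38 (adjusted p = 0.160), with 1.83 in experiment A and 1.67 in experiment B. On day 3 it already stood apart from the other early cultures.

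Aldh1a1 codes for a retinaldehyde dehydrogenase. It read 623, 1620 and 2917 on days 1, 2 and 3 of experiment A and 1055 on day 2 of experiment B. The middle cultures gave 2863, 3926, 6784 and 5799 on days 4 to 7 and 2411 on day 4 of experiment B. Day 3 lay above both day 4 values, so the groups overlapped, and the highest values were those of days 6 and 7. The slope was 0.53 ± 0.07 (SE, n = 9) on the log2 scale per day (adjusted p = 0.0284).

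Bmp4, a secreted ligand of the BMP family, read 603, 760 and 1001 on days 1 to 3 of experiment A and 892 on day 2 of experiment B. On the middle days it read 1450, 2026, 1900 and 2158 in experiment A and 1169 in experiment B. The groups did not overlap, and the difference was smaller in experiment B (log2 0.39) than in experiment A (1.27), a gap that was not tested. Bmp4 rose by 0.32 ± 0.05 (SE, n = 9) per day on the log2 scale (adjusted p = 0.0344).

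Glutathione transferases of the mu class, which join glutathione to reactive compounds, were represented by Gstm1 and Gstm2. Gstm1 read 1408, 1263 and 3277 on days 1 to 3 of experiment A and 1323 on day 2 of experiment B, against 3879, 3134, 7502 and 6515 on days 4 to 7 and 2865 on day 4 of experiment B. It rose by 0.44 ± 0.07 (SE, n = 9) per day on the log2 scale (adjusted p = 0.0367, or 0.0597 with experiment as a block). Only day 3 among the early cultures reached the middle range. Gstm2 read 411 to 651 in the early cultures other than day 3, 1699 on day 3 and 1220 to 2733 on the middle days. Its log2 difference was 1.35 ± 0.35 and its trend did not pass (adjusted p = 0.0917).

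A further set of genes had higher middle means but passed neither test. Clu, which codes for the secreted chaperone clusterin, read 686, 885, 1573 and 617 in the early cultures (days 1, 2 and 3 of A, then day 2 of B) and 1587 to 3024 on the middle days, with no overlap. Gas1, a membrane-anchored protein named for its expression in growth-arrested cells, read 375, 1005, 3189 and 2061 in the same order and 3167 to 6053 on the middle days. For Neat1, the long noncoding RNA that scaffolds paraspeckles, the ranges were 596 to 1159 and 1312 to 2178, with no overlap. In Clu and Gas1 day 3 was the highest early value, and for Gas1 it reached the middle range. Pfkl, the liver form of phosphofructokinase, read 577 to 600 in the other early cultures, 1386 on day 3 and 1063 to 2019 on the middle days. Log2 differences of these 4 genes were 0.99 to 1.80, and their adjusted p ran from 0.272 to 0.341.

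The small leucine-rich proteoglycans Dcn (decorin) and Ogn (osteoglycin), which bind collagen fibrils, had the same shape. Dcn read 180 on day 1, 2281 on day 2 and 6777 on day 3 of experiment A and 1218 on day 2 of experiment B. On the middle days it read 7459, 6393, 17572 and 13483 in experiment A and 3486 in experiment B. Its log2 difference of 2.58 ± 0.72 had an adjusted p of 0.426, and the early cultures ran from below the floor to 6777. Ogn was below the floor on days 1 and 2 (134 and 71), at 516 on day 3 and 315 on day 2 of experiment B, and at 506 to 933 on the middle days. Dcn was lowest on day 1 and Ogn on days 1 and 2 of experiment A.

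**Figure D2:**
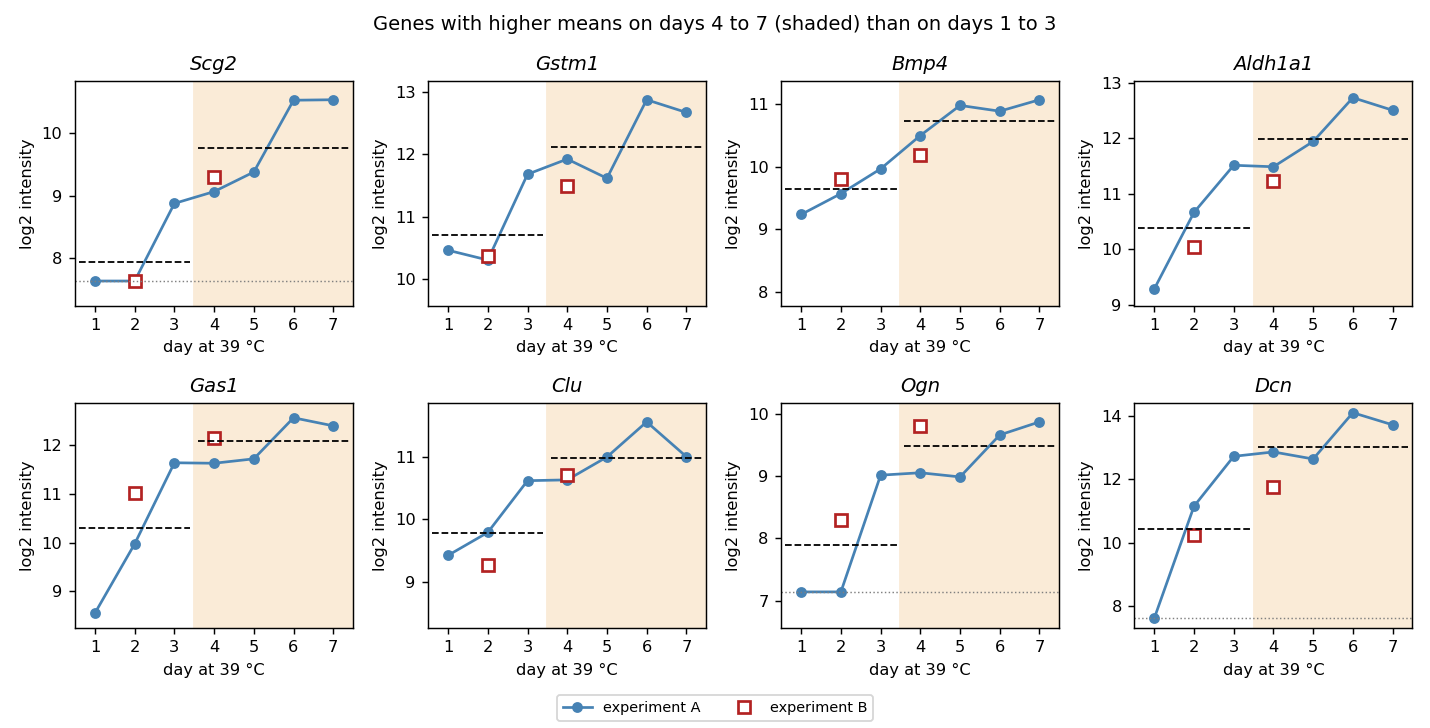
Log2 intensity (vertical axis) by day at 39 °C (horizontal axis) for 8 genes with higher middle means, with experiment A as joined points, experiment B as open squares, dashed lines at the mean of each group and a dotted line at the floor where it falls in the panel. Day 3 of experiment A lies above days 1 and 2 in every panel, and Scg2, Bmp4 and Clu have no overlap between the unshaded and shaded days.

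Of the genes that fell, Glipr2, a protein attached to Golgi membranes, read 1611, 1213 and 763 on days 1 to 3 of experiment A and 1297 on day 2 of experiment B. The middle values were 672, 407, 522 and 317 on days 4 to 7 and 771 on day 4 of experiment B. Day 3 and day 4 of experiment B were nearly level, which made the groups overlap. Glipr2 fell by 0.38 on the log2 scale per day (SE 0.05, n = 9, adjusted p = 0.0344). Tmsb10, a thymosin that binds actin monomers, read 7549, 4718, 4249 and 5551 in the early cultures (days 1, 2 and 3 of A, then day 2 of B). It read 3421, 2242, 2219, 2288 and 2848 in the middle cultures (days 4 to 7 of A, then day 4 of B), below every early value. It fell by 0.30 per day (SE 0.05, n = 9, adjusted p = 0.0439), in a probe set that can also read related sequences. On a second such probe set the groups overlapped (1049 to 4742 early, 832 to 2838 in the middle).

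Krt18, a keratin of simple epithelia, had one of the smallest p of the lower genes. Its early values were 3147, 4168, 1597 and 2844, and its middle values 1205, 1067, 713, 810 and 982, in the same order of cultures. No middle culture reached an early one, and day 3 was the lowest early culture. The log2 difference was -1.57 ± 0.30 (adjusted p = 0.126). Krt8, the usual partner of Krt18 in keratin filaments, was near the floor on its design b probe set in both groups (-54 to 348).

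Cxcl12, a chemokine, read 1575, 1044, 893 and 1186 in the early and 575, 516, 464, 468 and 633 in the middle cultures. It fell by 1.11 on the log2 scale with experiment as a block (adjusted p = 0.0421), and without the block the log2 difference was -1.12 ± 0.22 (adjusted p = 0.126). Timm10b, a part of the protein import machinery of mitochondria, read 255 to 335 early and -116 to 172 in the middle, with 4 of the 5 middle cultures at the floor. It fell by 1.00 with the block (adjusted p = 0.0421), and its size depended on the floor, from -0.14 with a higher floor to -1.70 with a lower one without the block. Hdac1, a histone deacetylase, read 70 on day 3 and 231 to 354 in the other early cultures, against 70 to 155 on the middle days.

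**Figure D3:**
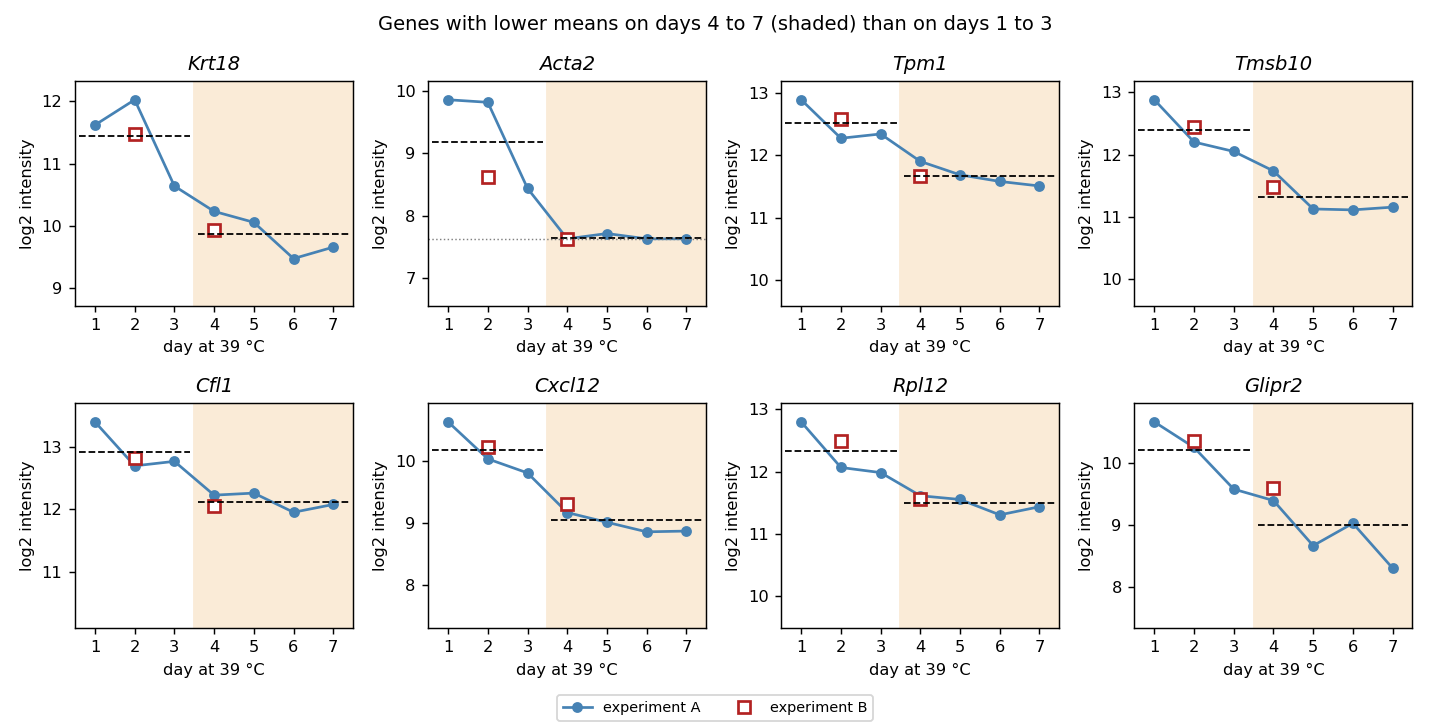
Log2 intensity (vertical axis) by day at 39 °C (horizontal axis) for 8 genes with lower middle means, with experiment A as joined points, experiment B as open squares, dashed lines at the mean of each group and a dotted line at the floor where it falls in the panel. In every panel but that of Glipr2, all middle cultures lie below all early ones.

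Day 3 was the only one of the 9 cultures whose removal gave calls between the groups. Without it, 26 probe sets passed (0.337%), 13 higher (0.168%) and 13 lower (0.168%). The named ones that were higher were Scg2, Gstm1, Gstm2, Aldh1a1, Clu, Gas1, Ogn, Dcn, Pfkl, Vldlr and Dbp, and the named ones that were lower were Krt18, Cxcl12, Tmsb10, Acta2, Tagln2 and Hdac1. Vldlr, a lipoprotein receptor, rose by 1.94 ± 0.32 (adjusted p = 0.0123) and Dbp, a transcription factor of the circadian output, rose by 1.92 ± 0.30 (adjusted p = 0.0117). Of the 20 top-ranked genes, 12 were nearer on day 3 to the mean of days 4 to 7 of experiment A than to that of days 1 and 2. These were 8 of the 10 higher genes and 4 of the 10 lower ones. The 20 were ranked on a comparison that counts day 3 as early, and the same count over all tested probe sets was not made. The counts therefore describe these 20 genes only and not day 3 as a whole. Lower genes such as Tpm1, Cfl1, Tmsb10, Rpl12 and Cxcl12 were nearer to days 1 and 2 on day 3. The noise of an array, taken from the size of its negative values, was also lowest on days 3 and 4 within experiment A (124.5 and 104 on design a, against 143 to 191 on the other days), and with noise as a covariate 7 probe sets passed instead of 0.

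Gene lists are described by the number of their probe sets that rose, fell or did not pass, with their median. No probe set of any of the 28 lists passed in the comparison of groups (all tested probe sets 0%). The counts below are therefore of unadjusted p under 0.05, to be read against 2.41% higher and 2.54% lower among all tested probe sets.

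The actin cytoskeleton list, which covers actins, tropomyosins and proteins that bundle, sever or bind actin, had the lowest median of the 28 lists. Its 61 probe sets had a median log2 difference of -0.30, against 0.02 for all tested probe sets, with 15 lower (24.6%) and 2 higher (3.28%). Its median was -0.33 in experiment A and -0.25 in experiment B. Beside Tmsb10, Tpm1 read 7597, 4951, 5193 and 6107 in the early and 3828, 3297, 3064, 2913 and 3269 in the middle cultures. Acta2, smooth muscle actin, read 929, 903, 347 and 392 early and 80, 210, -30, -148 and -58 in the middle, where 4 of 5 cultures were at the floor. Cofilin (Cfl1), which severs actin filaments, read 6652 to 10845 early and 3971 to 4914 in the middle. None of these 3 genes had an overlap between the groups.

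Other members of the actin list were lower in mean with overlap. Tagln2 read 3179, 1772, 730 and 1158 early and 595 to 839 in the middle, and Tagln, a calponin-like actin-binding protein, read 4267, 1751, 835 and 1519 early and 548 to 1261 in the middle. Day 3 of both lay within the middle range. The membrane linker moesin (Msn) had 2 probe sets with log2 differences of -1.00 and -0.84, whereas its relative ezrin (Ezr) had 0.84 and the LIM protein Fhl1 had 0.93. Beta-actin (Actb) read 1938 to 3126 early and 1365 to 2127 in the middle on the probe set with the smallest p, and its log2 difference of -0.56 had an adjusted p of 0.991. Of 48 genes of the actin list with a RefSeq window of 100 bases before the start, 7 held a CArG box, against 0.7% of all 27025 genes. A GC box was held by 31 of the 48, against 27.34% of all genes. The 48 were taken whether or not they were lower here, and these counts were not tested. Of the 17 top-ranked genes with a window, Glipr2 was the only one with a CArG box.

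Ribosomal protein genes had 12 lower (25%) and 0 higher of 48 probe sets, and the median was -0.26, with -0.27 for experiment A and -0.42 for experiment B. Of the 48 probe sets, 38 may also read a close relative, and which gene they measured is uncertain. Rpl12 read 7126, 4293, 4056 and 5770 in the early and 3136, 3008, 2535, 2774 and 3012 in the middle cultures. Rpl13a, on a probe set not shared, read 1950, 1210, 730 and 1680 early and 442 to 922 in the middle. In both, day 3 was the lowest early culture.

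The cell cycle and DNA replication list had 10 lower (13.9%) and 0 higher of 72 probe sets, with a median of -0.12. Rrm1 and Rrm2, the subunits of ribonucleotide reductase, had log2 differences of -0.80 ± 0.30 and -0.96 ± 0.30, with adjusted p of 0.797 and 0.602. Rrm1 read 610 to 1028 early and 262 to 573 in the middle. Tyms, which makes thymidylate, read 297 to 443 early and 122 to 264 in the middle. The groups of both did not overlap. Mki67 (log2 difference -0.12) and Pcna (-0.01) were level, with intensities of 681 to 1165 against 744 to 855 for Mki67 and 497 to 1225 against 523 to 1071 for Pcna. Top2a was under the floor in all 5 middle cultures on its design a probe set, and above it in 2 of 4 early ones (150 and 394). On its design b probe set the groups overlapped (85 to 641 early, -67 to 287 in the middle). Both probe sets are shared within a family.

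Inhibitors of cyclin-dependent kinases and p53 targets had 5 higher (18.5%) and 0 lower of 27 probe sets. Their median was 0.11, with 0.17 in experiment A and -0.005 in experiment B. The 5 higher ones were Gas1, Gadd45a, Cdkn1b, Pdcd4 and Ypel3. The list is broader than its name: it holds Gas1, the membrane-anchored protein above, and Pdcd4, which is also in the apoptosis list. Cdkn1b, the inhibitor p27, read 319, 317, 531 and 949 early and 865, 790, 675, 805 and 1480 in the middle, where experiment B was higher than experiment A on both of its days. Its log2 difference was 0.90 ± 0.38 on this probe set and 0.24 and 0.52 on 2 others. Gadd45a, a p53 target of the DNA damage response, read 84 to 498 early and 479 to 726 in the middle. Cdkn1a (p21) read 225 to 808 and 381 to 1187 with a difference of 0.28, and Mdm2, the p53 ubiquitin ligase, had -0.37.

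Antioxidant enzymes and glutathione transferases had 5 higher (13.9%) and 2 lower (5.56%) of 36 probe sets. Their median was 0.22, with 0.25 in experiment A and 0.03 in experiment B. In the trend over days, 12 of them were higher and 1 lower at unadjusted p under 0.05 (6.29% and 4.89% of all tested), and Gstm1 alone passed after adjustment, a call lost with experiment as a block (adjusted p = 0.0597). Beside Gstm1 and Gstm2, Gsta3 was below the floor in all 4 early cultures (-37 to 69) and read 199, 503, 801, 436 and 386 in the middle ones. The ferritin heavy chain (Fth1) read 3148 to 6747 early and 4067 to 11191 in the middle on a shared probe set. Nfe2l2, the transcription factor that drives many of these genes, read 487 to 1125 and 892 to 1419. Txn1 and Gsto1 were the 2 lower ones at unadjusted p under 0.05, at -0.61 and -0.75.

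Extracellular matrix genes went both ways, with 6 higher (9.68%) and 6 lower (9.68%) of 62 probe sets and a median of 0.03. The higher ones were Dcn, Postn, Col6a1, Col6a2, Sdc2 and Pcolce, which are fibril-associated proteins, a cell-surface proteoglycan and an enhancer of procollagen cleavage. The lower ones were Timp1, Lama5, Fbln2, Lox, Col4a1 and Col4a2, which include basement membrane chains, a protease inhibitor and a crosslinking enzyme. Col6a1 read 830, 2051, 3297 and 1601 early and 3431, 2514, 4980, 5391 and 1893 in the middle. Col4a1 read 2871 to 4509 early and 1982 to 2819 in the middle, with no overlap. Fn1 (-0.54) and Col1a1 gave no call, with adjusted p of 1. The 3 probe sets of Col1a1 had log2 differences of 0.44, -0.08 and -0.03.

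The otic and inner ear development list had 3 higher (12.5%) and 0 lower of 24 probe sets, and the median was 0.24, with 0.25 for experiment A and 0.15 for experiment B. The 3 were Bmp4, Aldh1a1 and Id2, of which the first 2 rose in the trend. Id2, an inhibitor of basic helix-loop-helix factors, read 1242, 1846, 2847 and 2645 early and 3451, 4082, 6878, 3534 and 4821 in the middle, with no overlap. Its log2 difference was 1.11 ± 0.31 (adjusted p = 0.426). Gata3 read 11, 138, 473 and 364 early and 431, 222, 660, 479 and 571 in the middle, with a difference of 0.63 ± 0.37 (adjusted p = 1). Pax2 had 0.38 and 0.29 on its 2 probe sets, and Notch1 0.59 and -0.10 on its 2.

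Hair cell markers were few on the arrays: 9 of 21 genes had a named probe set, and 6 of these were tested. Of their 8 probe sets 0 were at unadjusted p under 0.05, and the median was 0.03. Myo7a, the myosin of stereocilia, read 225 to 381 early and 129 to 298 in the middle, close to the floor of 141. Myo6 read 58 to 326 and 119 to 209 on the same design. Atoh1 and Pou4f3, the transcription factors that define hair cells, were not among the tested probe sets. Of 19 supporting cell markers 10 had a named probe set and 5 were tested, and Cdkn1b was the 1 of 8 probe sets at unadjusted p under 0.05. Of the 24 probe sets of the Notch pathway 0 were. Defining hair cell markers were thus near the floor or not tested in both groups.

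Probe sets at unadjusted p under 0.05 numbered 0 of 26 for macrophage and blood cell, 0 of 11 for endothelial cell, 0 of 19 for muscle and 0 of 9 for melanocyte and glia markers. Mesenchymal markers had 2 higher (Dcn and Postn, 11.1%) and 2 lower (Acta2 and Tagln, 11.1%) of 18, and epithelial markers had Krt18 lower (6.25%) and 0 higher of 16. Of the 5 otic neuron probe sets, Scg2 was higher (20%) and Tubb3, a neuronal tubulin, lower (20%), at 1053 to 1307 early and 416 to 931 in the middle. The interferon and MHC class I list had 0 higher and 2 lower of 43, both of the immunoproteasome subunit Psmb8, which read 1064 to 1587 early and 616 to 1005 in the middle on design a.

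Among metabolic and stress lists, glycolysis had 1 higher (Pfkl) of 23 probe sets, lysosome 2 higher of 43, heat shock and protein folding 2 higher and 2 lower of 45, and endoplasmic reticulum stress 2 higher of 24. Signalling ligands and their pathways had 2 higher (Bmp4 and Id2) and 1 lower (Igfbp7) of 50, apoptosis 2 higher of 24, immediate early factors and Myc 2 higher of 24, and tubulins 1 higher and 1 lower of 13. Oxidative phosphorylation had 0 of 41 and cholesterol synthesis 0 of 14. Cathepsin D (Ctsd), a lysosomal protease, read 5172, 6372 and 10439 on days 1 to 3 of experiment A and 12631 to 17831 on days 4 to 7. In experiment B it read 7915 on day 2 and 5498 on day 4, the opposite direction. Hspa8, a constitutive chaperone, read 6683 to 12515 early and 4687 to 5968 in the middle on a shared probe set, with no overlap and an adjusted p of 0.797. On a second shared probe set of Hspa8, on design b, the groups overlapped (8912 to 18633 and 7207 to 16916).

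**Figure D4:**
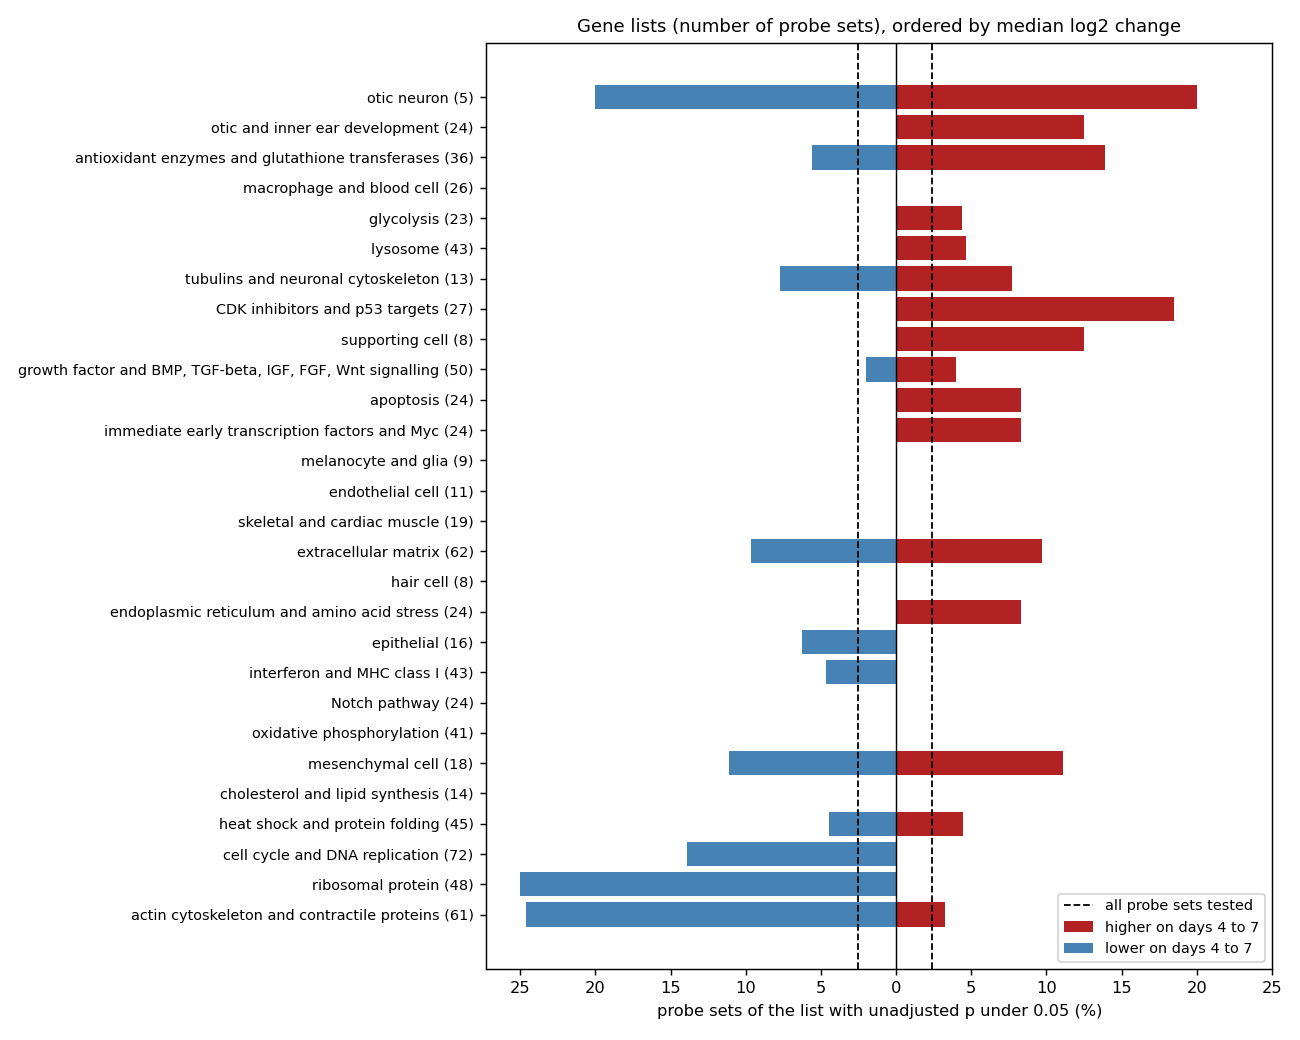
Percent of the probe sets of each list with unadjusted p under 0.05 for middle against early days (horizontal axis, higher to the right, lower to the left), with lists on the vertical axis ordered by median log2 difference and the number of probe sets in brackets. Dashed lines mark all tested probe sets (2.41% higher, 2.54% lower), and the actin (24.6%) and ribosomal protein (25%) lists have the largest lower shares.

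Day 4 was compared with day 2 because both experiments measured these days, so that each day had 2 samples. By limma on the 8 arrays of days 0, 2, 4 and 9 per design, 0 of 7726 probe sets passed (0% called, smallest adjusted p 0.0635), and 206 had an unadjusted p under 0.05 (2.67%), 123 higher (1.59%) and 83 lower (1.07%). Periostin (Postn), a matricellular protein, read 326 and 284 on day 2 and 1463 and 1744 on day 4 of experiments A and B. Timp1, an inhibitor of matrix metalloproteases, read 2037 and 2104 on day 2 and 573 and 533 on day 4. Their log2 differences, fitted without experiment as a block, were 2.39 ± 0.15 and -1.91 ± 0.13, both with an adjusted p of 0.0635. Postn and Timp1 were named after their values were seen. Both genes overlapped between the groups of days, since Postn read 1067 on day 3 and 490 on day 5, and Timp1 read 819 on day 3 and 1296 on day 5. Krt18 differed by -1.66 ± 0.28 between these days, Scg2 by 1.55 ± 0.27 and Gstm1 by 1.37 ± 0.24, none of which passed.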

How the data were processed

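Total RNA of UB/OC-1 cultures was measured on 2 oligonucleotide array designs. The deposited values are intensities on a linear scale, whole numbers that the authors had scaled: trimmed means of the arrays, leaving out 2% of values on either side, were 300.37 to 300.71, so they were used as deposited. Software and background method: not given in the sources used here. Of the value columns, 0 were left unused. Control probe sets (61 per design) were left out. One gene symbol was given by the platform annotation for 5541 probe sets of design a and 2001 of design b, several for 197 and 27, and none for 785 and 4506. Only probe sets with 1 symbol were named. Names ending in f_at mark probe sets shared within a family.

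As the floor served, for each design, percentile 75 of its negative values without their sign. The package limma 3.58.1 (R 4.3.3) fitted the models per design (lmFit, then eBayes, trend and robust), with two-sided tests and adjustment over both designs. The groups entered a fit of all 16 arrays with day 0 (33 °C) and days 8 to 14 as further phases (12 residual degrees of freedom). The trend used 9 arrays (7) and day 4 against day 2 used 8 (4). The scripts were checked on simulated data. The number of arrays limits the precision.

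Genes were named by rank: the 10 smallest p in each direction with the same sign in both experiments, since none passed, which makes agreement of the experiments no result, together with a set list of 34 genes, of which 32 were tested. Members of lists named beyond these were chosen after their values were seen. Older symbols of 13 list genes were updated. The members and lists were chosen with earlier results of these data known. Differences between experiments A and B on the 4 shared days correlated across probe sets (r = 0.27 to 0.73, 6 pairs of days per design), so experiment pairs the samples. The printed differences, SE and p leave this pairing out unless the block is named. Alternatives covered the floor, filter, normalization, scale, variance model, days in each group, each culture left out, and, added after seeing the data, covariates for array noise and the Gapdh control ratio.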

Additional observations from a re-analysis of the deposited data

Results flagged for a closer look

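Of the 96 groups of 4 or 5 arrays examined (48 genes), 13 held a value that stood far from the others by Dixon's criterion, where chance gives about 1 in 20. All are log2 intensities. Day 3 of experiment A stood above the other early arrays for Scg2 (8.87), Gstm1 (11.7) and Pfkl (10.4). Day 2 of experiment A stood above them for Hspa8 (13.6), Top2a (8.62), Krt8 (7.77) and Mgp (8.07). Among the middle arrays, day 4 of experiment A stood above the others for Timm10b (7.43) and Iigp1 (8.03), day 5 for Acta2 (7.71), Krt8 (8.44) and Mgp (7.43), and day 6 for Myo6 (7.71). In Scg2, Timm10b, Acta2, Iigp1, Krt8, Mgp, Top2a and Myo6 the other arrays of the group lay mostly at the floor, so 1 array above it was enough. Ctsd differed in direction between the experiments, at -0.53 in experiment B and 1.09 in experiment A, and so did Gbp2, at 0.10 and -0.77. Experiment B has 1 culture in each group, and these differences were not tested.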

How the results depend on the processing

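The count of 0 for middle against early days became 2 with a lower floor, 3 with eBayes without trend and robust, 3 with experiment as a replicate block, 26 with days 1 and 2 alone as the early days, and 7 with noise as a covariate. It was 0 with a higher floor, the other filters, quantile normalization, the arcsinh scale, the 9 arrays alone, experiment A alone, days 5 to 7 as the middle days, and the Gapdh control ratio as a covariate. Leaving out each culture gave 0 to 26 for the groups, with 26 without day 3, and 0 to 11 for the trend, whose 7 calls became 9 with the block. Day 4 against day 2 went from 0 to 4 with a higher floor, and stayed at 0 with the block. Krt8 turned to -0.15 on the arcsinh scale, Gapdh to 0.0933 with days 5 to 7 as the middle days, and Pcna to 0.0206 with the block, 0.10 in experiment A alone, 0.0893 with noise and 0.17 with the Gapdh control ratio. Leaving out 1 culture at a time, the log2 change ran from -0.13 to 0.49 for Cdkn1a, -0.23 to 0.0298 for Mki67, -0.25 to 0.11 for Gapdh, -0.25 to 0.0590 for Mgp and -0.18 to 0.27 for Pcna. Over these alternatives the median of the actin list ran from -0.39 to -0.15 and that of the ribosomal list from -0.37 to -0.23. For Scg2 the log2 change ran from 1.10 with a higher floor to 2.23 with a lower one. The causes were not tested. Signals near the floor limit what can be said of Krt8, Top2a, Timm10b, Acta2 and the hair cell markers.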
